A study of Mus musculus with 20 samples.

Results

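Interleukin-2 (IL-2) is a growth factor of T cells, and the 10 genes described here encode IL-2, its receptor chains, the alpha chain of the related IL-7 receptor, the STAT5 proteins and 3 response genes. They were chosen by name, with earlier results of these data known. Taken were all array probes whose gene name in the scanner files was Il2, Il2ra, Il2rb, Il2rg, Il7r, Stat5a, Stat5b, Cish, Socs1 or Socs2. The study had already reported Il2ra, Cish and Socs2 as regulated in these arrays. Counts of called genes are therefore not those of a blind choice. These were 10 of 30342 named genes and 14 of 39429 probes. Of the 14 probes, 13 passed the detection filter, and all 10 genes were among the 17322 genes tested through 22264 probes. The level of a gene is given as a normalised intensity, the brightness of its probe after scaling, and such levels were compared between samples for 1 probe at a time and never between genes.

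IL-2 binds a receptor of 3 chains. The alpha chain (Il2ra, also named CD25) raises the affinity of the receptor, while the beta chain (Il2rb, shared with the IL-15 receptor) and the common gamma chain (Il2rg, shared with the receptors of IL-4, IL-7, IL-9, IL-15 and IL-21) carry the signal to the kinases JAK1 and JAK3. These kinases phosphorylate the transcription factors STAT5A and STAT5B, which enter the nucleus and raise the transcription of Il2ra itself and of Cish, Socs1 and Socs2, whose products inhibit cytokine signalling. Regulatory T cells (Treg) are known for constant display of CD25 and for taking up IL-2 made by other T cells, and IL-2 signalling through STAT5 is known to oppose the follicular T cell program driven by Bcl6.

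The study sorted CD4 T cells of B6.Cg-Foxp3<tm1Mal> mice, in which green fluorescent protein (GFP) reports the expression of Foxp3, the lineage factor of regulatory T cells. The comparisons address how follicular T helper cells (TFH) and follicular regulatory T cells (TFR) differ from non-follicular T cells, and whether they are alike in peripheral lymph nodes (pLN) and Peyer's patches (PP), the lymphoid organs of the gut wall. Cells of pLN were taken 12 days (d12) or 25 days (d25) after immunisation under the skin with keyhole limpet hemocyanin in alum, and for PP the labels name no immunisation. Sorted pLN populations were naïve T cells (GFP-PD1-GL7-), TFH (GFP-PD1hiGL7+), Treg (GFP+PD1-GL7-) and TFR (GFP+PD1hi, GL7+ and GL7- together). From PP the same Treg and TFR gates were sorted, with TFH divided into GL7+ and GL7- cells and with no naïve sample. All animals carried the reporter allele, both sexes were mixed, age was 8 to 14 weeks by the labels and each array held RNA pooled from 8 to 15 mice. Each pLN d12 and PP group had 2 arrays and each pLN d25 group had 1, which made 12 groups and 20 arrays on 5 slides of 4. Slides 1 and 2 held replicates 1 and 2 of pLN d12, slide 3 held pLN d25, and slides 4 and 5 held replicates 1 and 2 of PP. By the labels, slides 1 and 4 were prepared from 50 ng of RNA per array and the rest from 40 ng (the study's methods state another range), so input and slide cannot be told apart within a group.

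The number of arrays, rather than a count of reads, limits the precision here, and p-values measure the spread between these samples only. In a bulk sample, fewer cells of a type and less RNA per cell cannot be told apart. Between 43.0% and 58% of probes were detected per array. The sort matched its labels by Foxp3, which lay between 13409 and 35129 on all Treg and TFR arrays and between 27.0 and 94.8 on all TFH arrays, and 5 of 5 CD4 T-cell markers were above background on every array. One slide stood apart. The summed intensity of 12 B-cell markers reached 174705 on the PP TFR array and 116216 on the PP Treg array of slide 4, against 13464 and 15345 on slide 5 and 4892 to 25931 in pLN. All 12 of these markers were above background on slide 4, but also on pLN d12 TFH replicate 1 and PP GL7+ TFH replicate 2. Summed markers of myeloid and of epithelial cells were higher on slide 4 than on slide 5 in each PP population. In PP Treg cells they were 6325 against 798 and 7146 against 891. PP results are therefore given with and without the 4 arrays of slide 4. The part of these B-cell, myeloid and epithelial transcripts in the results was not tested.

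Across the 12 groups, 8 of the 10 genes passed an F test of any difference between groups (limma, p under 0.001 and adjusted p under 0.005), against 17.3% of all probes tested. Without slide 4, 4 of the 10 passed, against 4.23% of all probes. Stat5a and Stat5b did not pass in either case. The span between the highest and the lowest array was 447-fold for Il2ra, 226-fold for Socs2, 111-fold for Cish, 38.8-fold for Il7r and 23.9-fold for Il2rb. For Il2 it was 63.4-fold over the 15 arrays above background. It was 4.14-fold for Socs1, 2.32-fold for Il2rg, 2.17-fold for Stat5a and 1.70-fold for Stat5b. By this span of single arrays, 6 genes varied over wide ranges and 4 over narrow ones. Of these 4, Socs1 (adjusted p = 0.0011) and Il2rg (adjusted p = 0.0027) still passed the F test over all 20 arrays, though neither passed without slide 4. In the comparisons of single pairs of groups, a gene is named as called where its Benjamini-Hochberg adjusted p over all 22264 probes was under 0.05 and its log2 difference was at least 1 in size, with standard errors (SE) from a limma fit to all 20 arrays with 8 residual degrees of freedom. Calls made from fits to the compared groups alone were fewer and are given with the alternatives after the report.

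**Figure D1:**
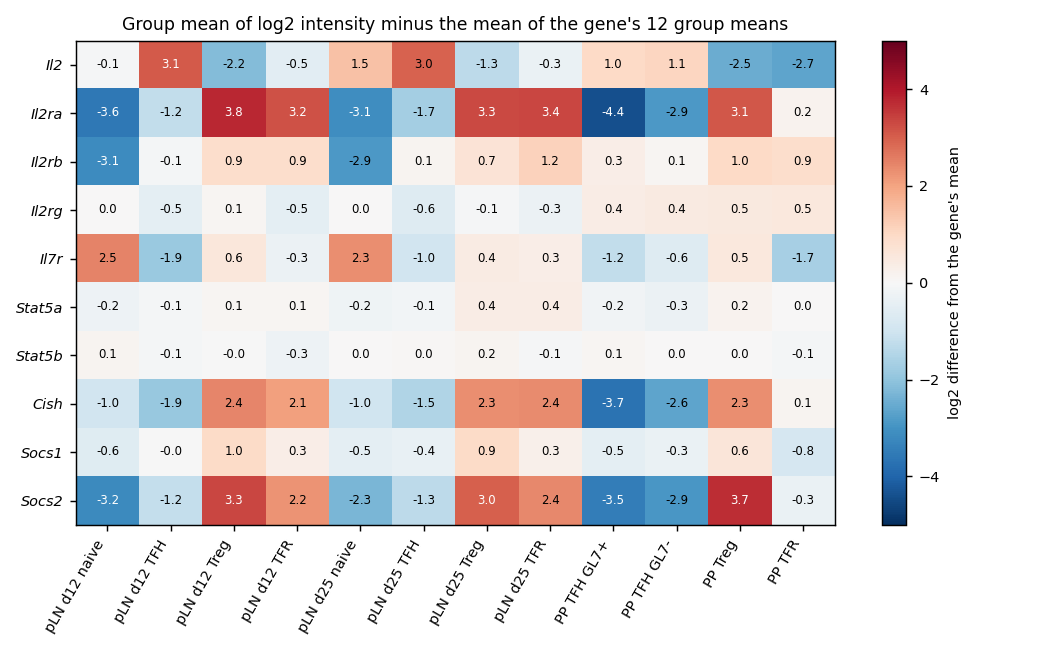
Rows are the 10 genes and columns the 12 sorted populations, and each cell gives the group mean of log2 intensity minus the mean of that gene's 12 group means, in log2 units (red above, blue below). Il2ra, Cish and Socs2 were high in the Treg populations and in pLN TFR cells, with PP TFR cells between these and TFH cells. Stat5b, shown by its brighter probe, varied over no more than 0.40 log2 units.

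The ligand gene Il2 (probe A_55_P2367803, mm9 chr3:37020012-37020071, minus strand) was highest in pLN TFH cells, with 1186 and 2213 on d12 and 1500.4 on d25. Naïve cells of pLN gave 86.9 and 396 on d12 and 536 on d25, and pLN TFR cells gave 111, 159.5 and 155. In pLN Treg cells the values were 68.5 and 26.6 on d12 and 76.9 on d25, of which the last pair was not above background. The 3 TFH arrays lay above all other pLN arrays.

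In PP, Il2 read 231 and 637 in GL7+ TFH cells and 302 and 555 in GL7- TFH cells. PP Treg cells gave 32.0 and 36.6 and PP TFR cells 27.1 and 34.9, and among these 4 arrays the second TFR array alone was above background. All PP TFH arrays were thus above all PP regulatory arrays, and both PP TFR arrays lay under the 3 pLN TFR arrays. In the order of group means, pLN d12 and d25 TFH cells were 0.11 apart (SE 0.91), and the next step, to pLN d25 naïve cells, was 1.49 (SE 1.05). Il2 was called in 5 of the 17 comparisons made. TFH cells exceeded naïve cells in pLN d12 by 3.13 on the log2 scale (SE 0.74, adjusted p = 0.0135) and exceeded Treg cells by 5.25 as fitted (SE 0.74, adjusted p = 0.00104), with 1 of the 2 Treg arrays above background. On slide 1, where both populations were measured, this difference was 4.11, and on slide 2 TFH cells were at least 24.5-fold above Treg cells. TFR cells were below TFH cells by a log2 difference of -3.61 in pLN (SE 0.74, adjusted p = 0.0171) and -3.64 in PP (SE 0.74, adjusted p = 0.0221), where 1 of the 2 TFR arrays was above background. In PP, GL7+ TFH cells were at least 9.89-fold above Treg cells (adjusted p = 0.0111), a bound because neither Treg array was above background. Here a bound takes, per dim array, the higher of the probe's own value and the lowest intensity detected on that array.

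Several of these Il2 calls depended on the processing or on single arrays. With normexp background correction the PP difference of TFR and TFH cells was -2.02 (adjusted p = 0.0581), and with no filter on dim probes that call was lost in PP (adjusted p = 0.0751) and in pLN (adjusted p = 0.0544). Without pLN d12 naïve replicate 1 the TFH excess over naïve cells was 2.03 (adjusted p = 0.12), and without TFH replicate 2 it was 2.68 (adjusted p = 0.0908). The pLN contrast of TFR and TFH cells lost its call without any 1 of its 4 arrays, at log2 differences of -4.06 to -3.16 (adjusted p = 0.0594 to 0.132). Without slide 4, the PP differences were -4.19 for TFR minus TFH cells (adjusted p = 0.264) and 4.12 for TFH minus Treg cells (adjusted p = 0.133).

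Il2ra (probe A_55_P1980796, mm9 chr2:11614744-11614803, plus strand) marked the regulatory populations. Treg cells gave 28054 and 20081 in pLN d12, 17418 in pLN d25, and 13579 and 17257 in PP. TFR cells gave 17697 and 14256 in pLN d12 and 18068 in pLN d25, but 1191 and 3268 in PP. Thus 8 regulatory arrays lay between 13579 and 28054, and the 2 PP TFR arrays lay well under all of them.

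Among Foxp3-negative cells, Il2ra read 743 and 760.4 in pLN d12 TFH cells, 537 in pLN d25 TFH cells, 210.4 and 106 in pLN d12 naïve cells and 207 in pLN d25 naïve cells. PP TFH cells gave 62.7 and 112 when GL7+ and 174 and 333 when GL7-. The PP TFR arrays stayed above each of these 10 arrays. In the order of group means, the 5 leading groups (pLN d12 Treg, pLN d25 TFR, pLN d25 Treg, pLN d12 TFR, PP Treg) were spaced by at most 0.39 on the log2 scale, less than the SE of each step (0.52 to 0.73). The step from PP Treg to PP TFR cells was 2.96 (SE 0.52) and the next, to pLN d12 TFH cells, was 1.39 (SE 0.52).

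Il2rb (probe A_51_P286496, mm9 chr15:78311109-78311168, minus strand) separated naïve cells from all others. Naïve pLN cells gave 2944 and 2569 on d12 and 3292 on d25, whereas every other array lay between 18988 and 61421. TFH cells gave 26752 and 18988 in pLN d12, 26428 in pLN d25, 37291 and 24946 in PP when GL7+ and 32081 and 20977 when GL7-. Treg cells gave 51693, 37522 and 39142 in pLN and 61421 and 38028 in PP, and TFR cells gave 46063, 43539.7 and 53704 in pLN and 53818 and 36685 in PP. The only step in the order of groups larger than its SE was that between pLN d12 TFH and pLN d25 naïve cells (2.78, SE 0.41). In all 8 groups with 2 arrays, Il2rb was higher on the slide with 50 ng input, by a median log2 difference of 0.52.

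The common gamma chain gene Il2rg (probe A_66_P113749, mm9 chrX:98460130-98460189, minus strand) read higher on PP than on pLN arrays, and differed by cell type within pLN. The 8 PP arrays lay between 58286 and 69485 and the 12 pLN arrays between 29954 and 52056, with no overlap. Within pLN, naïve and Treg arrays lay between 44918 and 52056, and TFH and TFR arrays between 29954 and 38166, again with no overlap. Among the 4 populations of PP, neighbours in the order of group means were at most 0.05 apart (SE 0.16), and the step from the last of them to pLN d12 Treg cells was 0.29 (SE 0.16).

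Il7r, the alpha chain of the IL-7 receptor, pairs with the common gamma chain and serves the survival of naïve T cells. Its probe (A_51_P196695, mm9 chr15:9435976-9436035, minus strand) gave 43892 and 35062 in pLN d12 naïve cells and 34938 in pLN d25 naïve cells. Treg cells followed with 13149, 8182 and 9254 in pLN and 8865 and 11564 in PP. TFR cells gave 6759 and 4925 in pLN d12 and 8820.0 in pLN d25, and 1130.5 and 4311 in PP. TFH cells gave 1664 and 2211 in pLN d12, 3614 in pLN d25, 2284 and 3920.3 in PP when GL7+ and 3112 and 6541 when GL7-. Naïve arrays were above all others. The PP TFR arrays differed from each other by more than any other pair of replicates of this gene and lay within the range of the TFH arrays or below it. The step from naïve to Treg cells in the order of groups was 1.75 (SE 0.72), and no later step was larger than its SE.

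**Figure D2:**
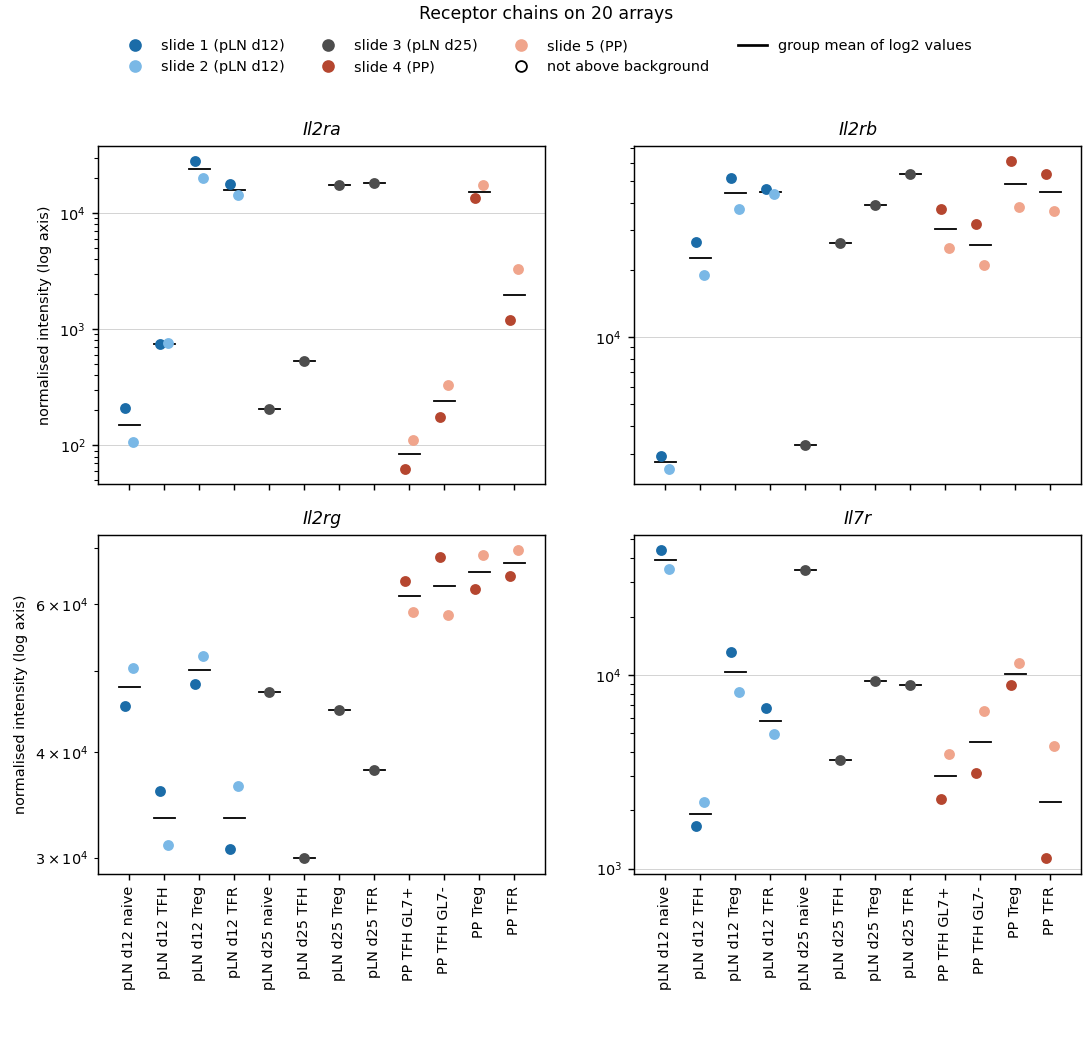
Each point is 1 of 20 arrays, the x axis gives the sorted population, the y axis the normalised intensity of Il2ra, Il2rb, Il2rg or Il7r on a log scale, colours mark slides and horizontal lines are group means of log2 values. The 3 naïve arrays stand alone at 2569 to 3292 for Il2rb, the PP arrays stand above pLN for Il2rg, and the PP TFR arrays at 1191 and 3268 stand apart from the other regulatory arrays for Il2ra.

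The transcripts of the 2 STAT5 proteins, which relay the signal, hardly moved, for Stat5b by its brighter probe. Stat5a (probe A_55_P1990495, mm9 chr11:100746373-100746432, plus strand) ranged from 3099 to 6732 over the 20 arrays, and Stat5b (probe A_55_P2031043, mm9 chr11:100642045-100642104, minus strand) from 10111 to 17168. In the 17 comparisons the log2 differences were between -0.35 and 0.36 for Stat5a and between -0.22 and 0.20 for Stat5b. None had an unadjusted p under 0.05 in limma, and the lowest adjusted p was 0.725 and 0.731. Intervals were wide: for TFR minus Treg cells in PP the 95% interval for Stat5a ran from -1.04 to 0.72. A difference of up to 1 log2 unit was thus not resolved by this fit, which leaves slide out. Within slides 4 and 5 that difference was -0.28 and -0.04. Replicates differed in one direction, as both genes were lower on the slide with 50 ng input in 8 of 8 groups (median log2 differences -0.57 and -0.42). A second Stat5b probe (A_55_P2031045, mm9 chr11:100642187-100642246) followed the first with a Pearson r of 0.56 over 20 arrays. Its group means of log2 intensity lay between 13.05 and 13.42 in PP and between 12.46 and 12.90 in pLN, with no overlap. It was highest in PP GL7+ TFH cells (9742 and 12409) against 5451 and 6318 in pLN d12 TFH cells. This log2 difference of 0.91 (adjusted p = 0.0422 in limma) was under the limit of size.

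Cish encodes the cytokine-inducible SH2 protein, an inhibitor that binds the activated IL-2 receptor complex and whose transcription follows STAT5 activity. The stretch of its promoter shown here holds the palindrome TTCNNNGAA, the core letters bound by STAT5 dimers, which reads the same on both strands. It comes from RefSeq (GRCm38.p6), runs 5′ to 3′ along the gene and has the motif in capitals.
Cish, chr9:107296559-107296683, plus strand, positions -100 to 25 from the start site: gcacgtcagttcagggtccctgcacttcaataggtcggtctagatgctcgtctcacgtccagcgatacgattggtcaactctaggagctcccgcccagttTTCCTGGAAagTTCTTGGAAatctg
The pair of matches lay at positions 1 to 9 and 12 to 20 from the start. Of all 32851 promoter windows of 300 bases (250 before and 50 after a start), 8.3% held at least 1 match and 0.457% at least 2. Windows were at hand for 8 of the 10 genes (10 windows), and Il7r was the other gene with a match, shown because its level in naïve cells was the highest of all groups.
Il7r, chr15:9529957-9530081, minus strand: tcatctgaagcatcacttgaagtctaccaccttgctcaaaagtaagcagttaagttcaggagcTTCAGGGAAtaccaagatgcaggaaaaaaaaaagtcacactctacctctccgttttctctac
Its match lay at positions -142 to -134. These matches are letters in a window and were not measured as binding sites.

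Cish (probe A_51_P470715, mm9 chr9:107204196-107204255, plus strand) gave 24323 and 23325 in pLN d12 Treg cells, 22451 in pLN d25 Treg cells and 20004 and 25149 in PP Treg cells. TFR cells gave 17175 and 19756 in pLN d12 and 22846 in pLN d25, and 2455 and 9752 in PP. Foxp3-negative cells were lower. They gave 2866 and 1818 in pLN d12 naïve cells, 872 and 1664 in pLN d12 TFH cells, 2219.9 and 1581 in the same populations on d25, 227 and 517 in PP GL7+ TFH cells, and 437 and 1157 in PP GL7- TFH cells. As with Il2ra, 8 regulatory arrays formed a compact top group and the PP TFR arrays lay between it and the TFH cells, though the first of them fell within the range of naïve arrays. Steps among the 5 leading groups were within their SE, the step from pLN d12 TFR to PP TFR cells was 1.91 (SE 0.67), and that from PP TFR to pLN d12 naïve cells was 1.10 (SE 0.67).

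Socs2, another inhibitor of cytokine signalling, was likewise highest in Treg cells, with a wider span. Its leading probe (A_55_P1992834, mm9 chr10:94875187-94875246, minus strand) gave 10459.8 and 9143 in pLN d12 Treg cells, 7686 in pLN d25 Treg cells and 10291 and 14983 in PP Treg cells. TFR cells gave 4668 and 4463 in pLN d12 and 5097 in pLN d25, and 445 and 1309 in PP. TFH cells gave 468, 372 and 390.3 in pLN, 66.2 and 113 in PP when GL7+ and 102 and 159 when GL7-, and naïve cells gave 90.5, 122 and 194. The first PP TFR array was thus within the range of pLN TFH cells, and no Treg array overlapped any TFR array. In the order of groups, the step from pLN d12 TFR to PP TFR cells was 2.58 (SE 0.46), while the 3 Treg groups followed each other at steps of 0.34 and 0.35, both within their SE. Of 3 further Socs2 probes, A_51_P107362 and A_55_P1992838 followed the leading probe with Pearson r of 0.999 and 0.991 over 20 arrays, and A_55_P2072586, some way from the others at mm9 chr10:94848005-94848064, was above background on 0 of 20 arrays.

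Socs1, whose product blocks JAK kinases, ranged less (probe A_51_P279606, mm9 chr16:10783951-10784010, minus strand). Treg cells gave 27456, 22815 and 24769 in pLN and 20656 and 18931 in PP, above every other array. TFR cells gave 16778, 15766 and 15542 in pLN but 6626 and 7957 in PP, where they formed the lowest of the 12 groups by mean. TFH cells gave 13630.5, 12185 and 10016 in pLN, 9752 and 8764 in PP when GL7+ and 11782 and 8696 when GL7-, and naïve cells gave 9997, 7296 and 9139. Thus PP TFR cells, which exceeded PP TFH cells in Il2ra, Cish and Socs2, lay below all PP TFH arrays in Socs1.

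**Figure D3:**
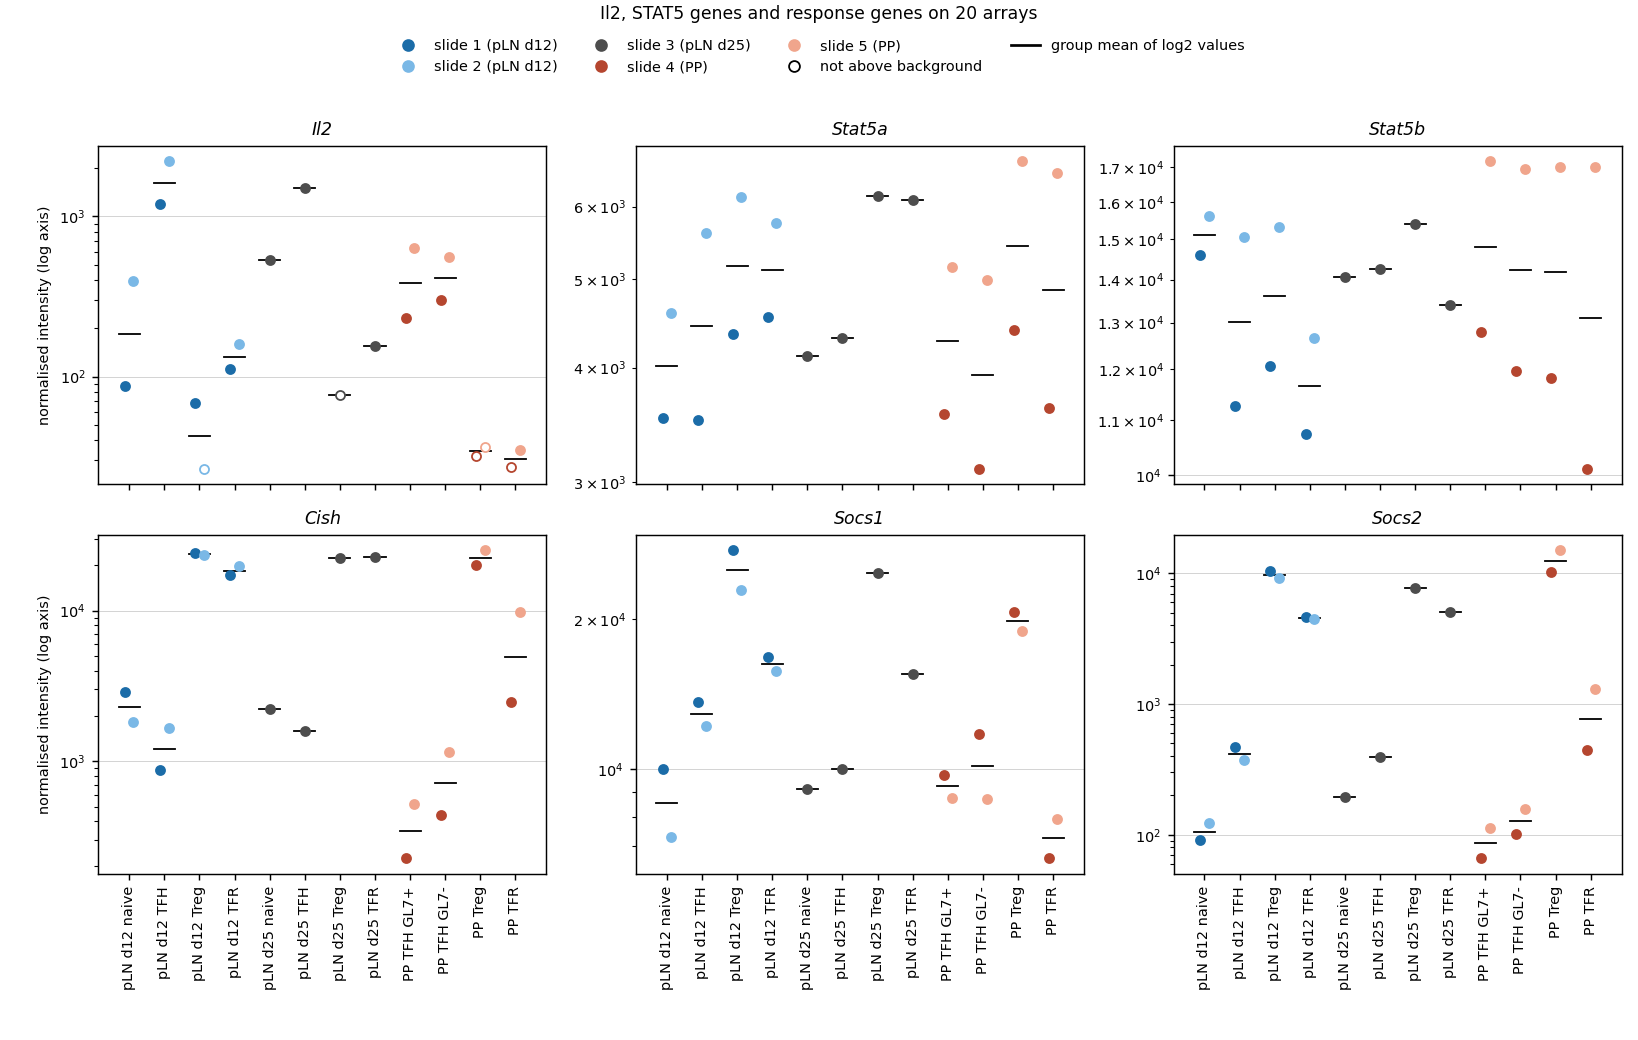
Each point is 1 of 20 arrays, the x axis gives the sorted population, the y axis the normalised intensity of Il2, Stat5a, Stat5b, Cish, Socs1 or Socs2 on a log scale, colours mark slides, open points were not above background and lines are group means of log2 values. Il2 is highest in pLN TFH cells at 1186 to 2213, and Socs1 is lowest in PP TFR cells at 6626 and 7957. Stat5a and Stat5b are lower on the slide with 50 ng input in 8 of 8 groups with 2 arrays.

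The first comparison asks what separated TFH from naïve cells of the same nodes on d12. TFH cells had more Il2, Il2ra, Il2rb and Socs2 and less Il7r, that is, 5 of the 10 genes were called against 14.7% of all probes (4 higher against 9.27%, 1 lower against 5.48%). Il2rb was 8.20-fold higher (log2 difference 3.03, SE 0.34, adjusted p = 0.000141), Il2ra 5.04-fold (2.33, SE 0.52, adjusted p = 0.00946) and Socs2 3.97-fold (1.99, SE 0.46, adjusted p = 0.0124). Il7r was 20.5-fold lower (log2 difference -4.35, SE 0.58, adjusted p = 0.000472). For Il2rb and Il7r the call held under all 11 alternatives run. Il2ra was 1.84 without naïve replicate 2 (adjusted p = 0.0742), and Socs2 was 1.77 without naïve replicate 1 (adjusted p = 0.094) and 1.82 without TFH replicate 1 (adjusted p = 0.0812). Socs1 (0.59, adjusted p = 0.0822) and Cish (-0.92, adjusted p = 0.426) were not called. Within slide 3, on d25, the log2 differences were 3.0 for Il2rb, -3.27 for Il7r, 1.38 for Il2ra and 1.01 for Socs2, with 1 array a group and no test.

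Treg cells differed from naïve cells by the receptor and the response genes. Of the 10 genes, 5 were called, all higher in Treg cells, against 2.86% of all probes called higher, 0.898% called lower and 3.76% in either direction. Il2ra was 159-fold higher (log2 difference 7.31, SE 0.52, adjusted p = 3.88e-05), Socs2 92.9-fold (6.54, SE 0.46, adjusted p = 3.88e-05), Il2rb 16-fold (4.0, SE 0.34, adjusted p = 0.000107), Cish 10.4-fold (3.38, SE 0.67, adjusted p = 0.0173) and Socs1 2.93-fold (1.55, SE 0.21, adjusted p = 0.00217). The Cish call was lost without any 1 of the 4 arrays, at log2 differences of 3.06 to 3.71 (adjusted p = 0.0668 to 0.128). Il7r was lower by a log2 difference of -1.92 (adjusted p = 0.133), which passed with slide as a fixed block (adjusted p = 0.00904). Il2rg differed by 0.07 (95% interval -0.30 to 0.43).

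TFH cells of pLN had less Il2ra, Cish, Socs2 and Il7r than Treg cells of the same nodes, and more Il2. These 5 genes were called against 10.5% of all probes (4 lower against 4.39%, 1 higher against 6.1%). Il2ra was 31.6-fold lower (log2 difference -4.98, SE 0.52, adjusted p = 0.000152), Socs2 23.4-fold (-4.55, SE 0.46, adjusted p = 0.000135), Cish 19.8-fold (-4.31, SE 0.67, adjusted p = 0.0019) and Il7r 5.41-fold (-2.44, SE 0.58, adjusted p = 0.0194). The Il7r call was lost without any 1 of the 4 arrays, at -2.78 to -2.09 (adjusted p = 0.0539 to 0.135). Socs1 lay just under the limit of size (-0.96, SE 0.21, adjusted p = 0.0132). It passed that limit without TFH replicate 1 (-1.04) and without Treg replicate 2 (-1.09).

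TFR cells of pLN had more Il2ra, Cish and Socs2 and less Il2 than TFH cells. Il2ra was 21.1-fold higher (log2 difference 4.40, SE 0.52, adjusted p = 0.000731), Cish 15.3-fold (3.93, SE 0.67, adjusted p = 0.00644) and Socs2 10.9-fold (3.45, SE 0.46, adjusted p = 0.00162). With Il2, 4 of the 10 genes were called against 5.01% of all probes (3 higher against 2.81%, 1 lower against 2.2%). Il2rb differed by 0.99 (adjusted p = 0.147) and Socs1 by 0.34 (adjusted p = 0.559). Cish was 3.47 without TFH replicate 1 (adjusted p = 0.0702) and 3.83 without TFR replicate 2 (adjusted p = 0.0544). Il7r was higher by 1.59 (adjusted p = 0.186), called with slide as a fixed block (adjusted p = 0.0148).

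In PP, TFR cells had more Il2ra, Cish and Socs2 and less Il2 than GL7+ TFH cells. Il2ra was 23.6-fold higher (log2 difference 4.56, SE 0.52, adjusted p = 0.000731), Cish 14.3-fold (3.84, SE 0.67, adjusted p = 0.00967) and Socs2 8.82-fold (3.14, SE 0.46, adjusted p = 0.00364). Again 4 of 10 genes were called, Il2 among them, against 3.44% of all probes (3 higher against 2.34%, 1 lower against 1.09%). Without slide 4, which left 1 array in each PP group, the log2 differences of these 3 genes were 4.87, 4.24 and 3.53. Il2 lost its call without GL7+ TFH replicate 2 (-2.91, adjusted p = 0.205) and without either TFR array (-3.82 to -3.46). Cish lost its call without PP TFR replicate 2 (2.84, adjusted p = 0.0702) and without GL7+ TFH replicate 1 (3.24, adjusted p = 0.0925). Il7r arrays of the 2 populations overlapped. Socs1 was not called and differed by -0.56 and -0.14 within slides in PP, against 0.30 and 0.37 in pLN. The difference between the organs in these contrasts of TFR and TFH cells was not tested. In both organs TFR cells held GL7+ and GL7- cells together, while the TFH cells compared were GL7+ alone. In PP GL7- TFH cells the mean log2 values were nearer to those of TFR cells. They were 7.91 for Il2ra (GL7+ 6.39, TFR 10.95), 9.47 for Cish (8.42 and 12.26) and 6.99 for Socs2 (6.44 and 9.58). TFR cells were not tested against GL7- TFH cells.

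PP GL7+ TFH cells had less Il2ra, Cish, Socs2 and Socs1 than PP Treg cells. Il2ra was 183-fold lower (log2 difference -7.51, SE 0.52, adjusted p = 1.19e-05), Socs2 143-fold (-7.16, SE 0.46, adjusted p = 8.16e-06), Cish 65.5-fold (-6.03, SE 0.67, adjusted p = 0.000231) and Socs1 2.14-fold (-1.10, SE 0.21, adjusted p = 0.00667). With Il2, 5 of the 10 genes were called against 9.87% of all probes (4 lower against 4.62%, 1 higher against 5.26%). Il7r differed by -1.76 (adjusted p = 0.0816), with -1.96 and -1.56 within slides, and was called with slide as a fixed block (adjusted p = 0.0051). Without slide 4, which left 1 array in each PP group, Il2ra was -7.27, Socs2 -7.05 and Cish -5.60, and Socs1 lost its call at -1.11. Socs1 also lost its call without GL7+ TFH replicate 2 (-1.02, adjusted p = 0.0561), as did Il2 (2.75, adjusted p = 0.0968), and Il2 lost it without either Treg array (3.39 and 3.58, adjusted p = 0.0568 and 0.0553).

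The comparison of TFR with Treg cells, both Foxp3+, asks how the follicular gate separated regulatory cells by these genes. In pLN d12 none of the 10 genes was called by limma, against 8.35% of all probes (5.79% higher and 2.56% lower), and 3 had an unadjusted p under 0.05. The median log2 difference of the 10 genes was -0.48, against -0.08 over all probes. Il2ra differed by -0.58 (95% interval -1.73 to 0.57, adjusted p = 0.612), Cish by -0.37 (adjusted p = 0.845), Socs1 by -0.62 (SE 0.21, adjusted p = 0.095) and Socs2 by -1.10 (SE 0.46, adjusted p = 0.185). Although not called, each of these 4 genes was lower in TFR cells on both slides, by -0.66 and -0.49 for Il2ra and by -1.16 and -1.03 for Socs2. With slide as a block, Socs2 was called (adjusted p = 0.01 as a fixed block, against 12.2% of all probes, and 0.00624 as a random block). Il2rg differed by -0.58 (SE 0.16, adjusted p = 0.0453), under the limit of size. Within slide 3, on d25, differences were 0.05 for Il2ra, 0.03 for Cish, -0.67 for Socs1 and -0.59 for Socs2.

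In PP, TFR cells had less Il2ra, Il7r, Socs1 and Socs2 than Treg cells, while Il2rb and Il2rg were level. These 4 of 10 genes were called lower against 3.02% of all probes called lower, 6.23% called higher and 9.25% in either direction, and the median log2 difference was -0.80 against -0.05 over all probes. Socs2 was 16.3-fold lower (log2 difference -4.02, SE 0.46, adjusted p = 0.000383), Il2ra 7.76-fold (-2.96, SE 0.52, adjusted p = 0.00432), Il7r 4.59-fold (-2.20, SE 0.58, adjusted p = 0.0352) and Socs1 2.72-fold (-1.45, SE 0.21, adjusted p = 0.00157). Cish differed by -2.20 (SE 0.67, adjusted p = 0.0628) and was called with slide as a fixed block (adjusted p = 0.00413). It was also called without PP TFR replicate 2 (-3.19, adjusted p = 0.0188). Il2rb differed by -0.12 (95% interval -0.87 to 0.63) and Il2rg by 0.03 (95% interval -0.33 to 0.40). The sign of each of these 2 small values changed when single arrays were left out.

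The differences of PP were larger on slide 4, the slide rich in B-cell transcripts, than on slide 5. They were -4.53 and -3.52 for Socs2, -3.51 and -2.40 for Il2ra, -3.03 and -1.37 for Cish, -2.97 and -1.42 for Il7r and -1.64 and -1.25 for Socs1. Both slides thus gave the same direction for each gene. Without the 4 arrays of slide 4, Socs2 alone was called (adjusted p = 0.00756, against 4.47% of all probes), with Il2ra at an adjusted p of 0.0673, Socs1 at 0.0794, Il7r at 0.164 and Cish at 0.244. Il7r also lost its call without PP TFR replicate 1 (-1.23, adjusted p = 0.225), without PP Treg replicate 1 (-2.39, adjusted p = 0.0855) and without PP Treg replicate 2 (-2.01, adjusted p = 0.186). On slide 5 the B-cell marker sums were 13464 for TFR and 15345 for Treg cells, with 11 and 10 of 12 markers above background. Markers of naïve cells also differed between these groups. Their summed intensity was 18774 to 29152 in PP TFR, 284577 to 304309 in PP Treg, 100873 to 118491 in pLN d12 TFR and 299152 to 315075 in pLN d12 Treg cells. The sums of 5 follicular markers were 399300 to 482850, 59806 to 88101, 139943 to 151667 and 43083 to 74162 in the same groups. Both sets thus differed between TFR and Treg cells of pLN too, where none of the 10 genes was called. Of the 5 follicular markers, Pdcd1 encodes PD1, which the sort gates use, and so its difference between TFR and Treg cells follows from the sort. The part of the naïve and follicular markers in the result was not tested.

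**Figure D4:**
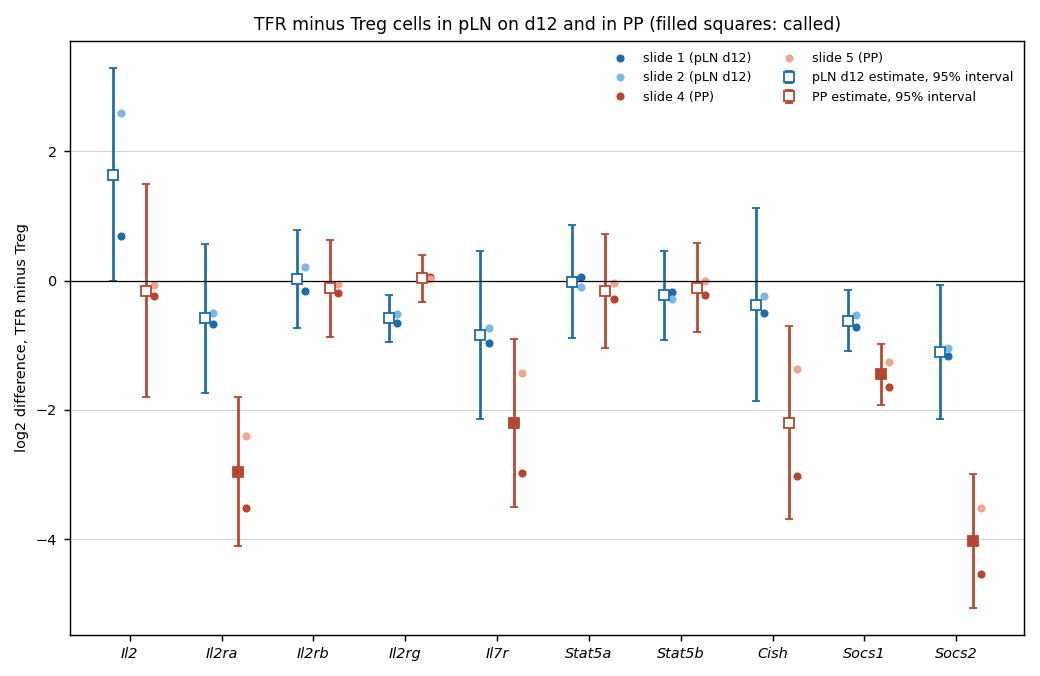
The x axis lists the 10 genes and the y axis gives the log2 difference of TFR minus Treg cells, in blue for pLN d12 and in red for PP, with squares for the limma estimate from 2 arrays a group, bars for its 95% interval, filled squares for called genes and dots for the difference within each slide. Il2ra, Il7r, Socs1 and Socs2 are called in PP, at -2.96, -2.20, -1.45 and -4.02, and no gene is called in pLN.

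Whether the change from Treg to TFR cells differed between the organs was tested as an interaction. None of the 10 genes was called by limma, against 0.548% of all probes (0.346% higher and 0.202% lower), and 4 had an unadjusted p under 0.05 (as did 1818 of the 22264 probes). The difference of the differences, PP minus pLN d12, was -2.92 for Socs2 (SE 0.66, adjusted p = 0.107), -2.38 for Il2ra (SE 0.73, adjusted p = 0.284), -1.83 for Cish (adjusted p = 0.736), -1.35 for Il7r (adjusted p = 0.854) and -0.82 for Socs1 (SE 0.30, adjusted p = 0.412). With slide as a fixed block, which compares cells within each slide, Socs2 (adjusted p = 0.00603) and Il2ra (adjusted p = 0.0139) were called, against 4.58% of all probes. Socs2 was also called without PP TFR replicate 2 (-3.70, adjusted p = 0.0238), and without slide 4 its value was -2.42 (adjusted p = 0.14). For Stat5a, Stat5b and Il2rb the values lay between -0.15 and 0.11.

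Compared directly, TFR cells of PP had less Il2ra, Socs2 and Socs1 and more Il2rg than TFR cells of pLN d12. These 4 of the 10 genes were called against 11.1% of all probes (3 lower against 5.39%, 1 higher against 5.74%). Il2ra was 8.05-fold lower (log2 difference -3.01, SE 0.52, adjusted p = 0.0044), Socs2 5.98-fold (-2.58, SE 0.46, adjusted p = 0.00523) and Socs1 2.24-fold (-1.16, SE 0.21, adjusted p = 0.0056). Il2rg was 2.0-fold higher (log2 difference 1.00, SE 0.16, adjusted p = 0.00324), at the limit of size, and it fell under that limit without pLN TFR replicate 1 (0.88) or PP TFR replicate 2 (0.95). With scaling to the 75th percentile alone, Il2rg was 0.56. Organs lay on different slides, so that a fixed block could not be fitted, but the 4 calls held with slide as a random block. Without slide 4, Il2ra (-2.28, adjusted p = 0.0364), Socs2 (-1.80, adjusted p = 0.0187) and Il2rg (1.05, adjusted p = 0.0319) were called and Socs1 was not (-1.03, adjusted p = 0.0582). Cish differed by -1.91 (adjusted p = 0.0815) and Il7r by -1.39 (adjusted p = 0.143), and both were called without PP TFR replicate 2 (-2.91, adjusted p = 0.0278, and -2.35, adjusted p = 0.0246). Il2rb differed by -0.01 (95% interval -0.76 to 0.74).

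PP GL7+ TFH cells had less Il2ra and Socs2 than pLN d12 TFH cells. These 2 of the 10 genes were called, both lower, against 2.18% of all probes called lower, 2.36% called higher and 4.54% in either direction. Il2ra was 8.97-fold lower (log2 difference -3.17, SE 0.52, adjusted p = 0.0086) and Socs2 4.82-fold (-2.27, SE 0.46, adjusted p = 0.0215). Il2rg was higher by 0.87 (SE 0.16, adjusted p = 0.0145), under the limit of size, and Cish (-1.81, adjusted p = 0.159) and Il2 (-2.08, adjusted p = 0.144) were not called. Il2ra lost its call without pLN TFH replicate 2 (-3.15, adjusted p = 0.0551) and without PP GL7+ TFH replicate 1 (-2.75, adjusted p = 0.0823), and Socs2 without any 1 of the 4 arrays (-2.66 to -1.88, adjusted p = 0.0528 to 0.168). Without slide 4, Socs2 was called (-1.88, adjusted p = 0.0486) and Il2ra was not (adjusted p = 0.0649).

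Between Treg cells of PP and of pLN d12 the pathway showed no called difference. None of the 10 genes was called by limma, against 2.24% of all probes (1.82% higher and 0.422% lower), and 1 had an unadjusted p under 0.05, Il2rg, at a log2 difference of 0.39 (adjusted p = 0.304). The differences were -0.63 for Il2ra (95% interval -1.79 to 0.52), 0.34 for Socs2 (95% interval -0.69 to 1.38), -0.34 for Socs1 (95% interval -0.81 to 0.13) and -0.09 for Cish (95% interval -1.58 to 1.41). With 2 arrays a group, differences of the size of these intervals were not resolved.

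GL7, a surface glycan used to mark germinal centre cells, divided PP TFH cells into 2 sorted populations. None of the 10 genes was called by limma, against 0.00898% of all probes, while 254 of 22264 probes had an unadjusted p under 0.05. Among the 10 genes this was Il2ra alone, lower in GL7+ cells by a log2 difference of -1.52 (95% interval -2.68 to -0.37, adjusted p = 1), with -1.48 on slide 4 and -1.57 on slide 5. In the methods' t-test of these groups, 556 probes passed unadjusted and 1 after adjustment, and 0 of the 10 genes passed in either case. Cish differed by -1.05 (95% interval -2.55 to 0.44) and Socs2 by -0.56 (95% interval -1.59 to 0.48).

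The later time point was compared with d12 in each pLN population. Each d25 group was 1 array, taken to vary like the other groups, and 0 of the 10 genes was called by limma in any of the 4 populations. Over all probes 0.00898% were called in naïve, 0.0314% in TFH (0.0225% higher), 0% in Treg and 0.00898% in TFR cells, and none of the 10 genes had an unadjusted p under 0.05, against 258 to 812 probes. The log2 differences, d25 minus d12, ranged from -0.17 to 1.53 in naïve, from -0.49 to 0.91 in TFH, from -0.45 to 0.85 in Treg and from -0.07 to 0.61 in TFR cells. The largest was that of Il2 in naïve cells (1.53, 95% interval -0.49 to 3.55).

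Over the 12 group means, some of the genes ran together. This is a description of 12 points that share arrays and normalisation. Il2ra and Socs2 had a Pearson r of 0.99 on the log2 scale, Il2ra and Cish 0.95, Cish and Socs2 0.94, Il2ra and Socs1 0.84 and Il2ra and Il2rb 0.66. Il2 ran against Cish (-0.71), and Il2rb against Il7r (-0.66). Stat5a, despite its narrow range, followed Il2ra with 0.91, and Il2rg followed no other member beyond -0.55 (Il2). Among 3129 genes that passed the F test, the 4 whose group means were most like those of Il2ra were Socs2 (0.987), Gbp3 (an interferon-inducible GTPase, 0.981), Entpd1 (the ATP-degrading ectoenzyme CD39, 0.979) and 5730416F02Rik (0.961). For Socs2 they were Gbp3 (0.988), Il2ra (0.987), Entpd1 (0.972) and Lad1 (0.964). For Il7r, which fell from naïve to follicular cells, they were Ttc27 (0.955), Rps6ka3 (0.946), Dennd2c (0.946) and Gm10866 (0.938).

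Around the 10 genes, 5 lists of pathway genes were read from the same fit. Of 16 genes known to be induced by IL-2 and STAT5, 5 were higher and 0 lower in Treg than in naïve cells of pLN (against 2.86% of all probes called higher; median log2 difference 1.01, against -0.03 over all probes). They included Foxp3 (7.72), the granzyme gene Gzmb (at least 90.2-fold, since neither naïve array was above background) and Tnfrsf4, which encodes OX40 (3.88). In pLN TFR against TFH cells, 8 were higher and 0 lower (against 2.81% of all probes called higher; median 1.10, against 0.01). Between TFR and Treg cells of pLN, 0 were higher and 2 lower (against 2.56% of all probes called lower), the survival gene Bcl2 (-2.28) and the cytokine gene Osm (-1.15), and in PP 1 was higher and 3 lower (against 6.23% and 3.02%), Gzmb (-3.26), Osm (-1.75) and Myc (-1.65) against the kinase gene Pim2 (1.21). The medians were -0.26 in pLN and -0.57 in PP, against -0.08 and -0.05. Gzmb was also the 1 gene of the list called in the interaction (-3.09, adjusted p = 0.0318). Foxp3 defined the sort gates, and so its differences follow from the sort.

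Of 5 genes known to be lowered by IL-2 and STAT5, the follicular regulator Bcl6 was higher in TFR than in Treg cells of pLN (1.28, adjusted p = 0.0277) and PP (3.19, adjusted p = 0.000178), and Il6ra was lower in PP (-1.40, adjusted p = 0.00723). Between TFR cells of PP and pLN, Bcl6 (2.39) and the transcription factor gene Tcf7 (1.36) were higher in PP and Il6ra was lower (-1.32). Il17a was above background on the 2 arrays of PP GL7- TFH cells alone, at least 11.8-fold above GL7+ TFH cells. It was 1 of the 2 probes called there. It passed the detection filter only through those 2 arrays, so that call is no independent support for the difference. With normexp background correction, or with the compared groups alone in the fit, 0 of 22264 probes were called in that comparison. Of 5 other SOCS genes, Socs3 was lower in TFR than in Treg cells in pLN (-1.34, adjusted p = 0.0253) and PP (-2.86, adjusted p = 0.000356), and Socs4, Socs5, Socs6 and Socs7 were not called in either.

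Genes of the common gamma-chain family showed where the other cytokines of these receptors stood. Of 9 genes 6 were tested, since Il7, Il9 and Il15 were not detected on enough arrays. In TFH against naïve cells of pLN, Il4 (7.06), Il21 (7.29, with 1 of the 2 naïve arrays above background) and Il9r (at least 9.59-fold, with neither naïve array above background) were higher and Il4ra (-3.65) was lower. The same 4 genes were called in the same directions between TFR and Treg cells, in pLN (Il21 at least 9.41-fold with neither Treg array above background, Il4 2.46, Il9r 1.57 with 1 of the 2 Treg arrays above background, Il4ra -1.83) and in PP (Il21 5.55, Il4 4.70, Il9r 1.70, Il4ra -2.19). Of 8 tested kinases, adaptors and phosphatases of the receptor, 7, including Jak1 and Jak3, were called in no comparison described, and Ptpn11, which encodes the phosphatase SHP-2, was higher in TFH than in naïve cells (3.15) and in TFR than in Treg cells of PP (2.19, adjusted p = 0.00023).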

How the data were processed

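RNA from sorted, pooled mouse T cells was hybridised in 1 colour to arrays that carry each probe 4 times. Per the submitters' processing notes, signals were read with Agilent Feature Extraction 10.7.3.1. The authors deposited the scanner's background-subtracted intensity of every feature and a table of probe intensities after quantile normalisation, with the 75th percentile set to 1500 and a floor of 20. Probe positions are those of the scanner files (mm9).

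Here the stated steps were rebuilt from the scanner values. Features more than 1.42 interquartile ranges outside the quartiles of their probe or with a pixel coefficient of variation over 0.5, marked by hand or marked as outliers by the scanner software, were left out, the rest were averaged geometrically, and arrays were quantile normalised. Against the deposited table, the median absolute log2 deviation per array was 0.0347 to 0.0362. A probe was detected on an array where at least 3 of 4 features were above background, and was tested if 1 or more of the groups with 2 arrays had it detected on each. No probe was saturated on all 4 features of an array. Of 39429 probes, 27508 were matched to RefSeq by accession.

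All 17 comparisons came from 1 limma model (limma 3.58.1, R 4.3.3) of 12 group means over 20 arrays, with Benjamini-Hochberg adjustment over all probes tested. The script was tested on simulated data. A gene with several probes is given by the one of highest mean log2 value among those tested. All 10 genes are named, with up to 4 called genes of each pathway list per comparison by size, the genes of lists of up to 5, and for Il2ra, Il7r and Socs2 the 4 genes most alike by Pearson r over group means. The genes and lists were chosen with earlier results of these data known. Groups and replicates follow the labels, with replicates numbered in accession order. Alternatives were the deposited table, normexp background correction (offset 50), 75th percentile scaling alone, no detection filter, slide as a fixed or random block, RNA input as a covariate, fits to the compared groups alone, and leaving out each array or slide 4. Markers were summed over the tested genes of each list, including myeloid genes (3092 to 10533 in PP TFR cells) and epithelial genes (at most 7146, in PP Treg cells of slide 4). Figures were drawn with matplotlib 3.10.9 in Python 3.11.15.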

Additional observations from a re-analysis of the deposited data

Results flagged for a closer look

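For 2 of the 10 genes, the readings of TFR and Treg cells differed in opposite directions in the 2 organs on every slide. For Il2 the log2 difference of TFR minus Treg cells was 0.69 on slide 1 of pLN d12, and on slide 2 TFR cells were at least 1.77-fold above a Treg array that was not above background. In PP the readings differed by -0.24 on slide 4 and -0.07 on slide 5, but neither Treg array and 1 of the 2 TFR arrays were above background, so their order is no order of expression. The fitted difference between the organs was -1.79 and was not called by limma (adjusted p = 0.824). Il2rg was lower in TFR cells of pLN d12 (-0.65 and -0.51) and higher in those of PP (0.05 and 0.02), a difference of 0.62 that was not called by limma (adjusted p = 0.43). The PP values of both genes were small and changed sign when single arrays were left out.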

How the results depend on the processing

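Of 131 alternative counts of called genes, 111 stayed within 1.5 times the reported count. Of 650 alternative values of single genes, 577 kept direction and call. Fits that left out 1 array at a time are not in these totals. They lost further calls, which are given above with each comparison. Replicate numbers were given in accession order and pair no samples; populations of 1 slide were paired by slide as a block. Fitted on the compared groups alone, the counts were 3 (from 5) for TFH minus naïve, 0 (from 5) for Treg minus naïve, 0 (from 4) for TFR minus TFH and 3 (from 5) for TFH minus Treg cells of pLN, 0 (from 4) for TFR minus Treg, 0 (from 4) for TFR minus TFH and 3 (from 5) for TFH minus Treg cells of PP, 0 (from 2) for PP minus pLN TFH and 0 (from 4) for PP minus pLN TFR cells; such fits hold fewer arrays. Where the count fell to 0, 0 of 22264 probes were called in all, except for PP minus pLN TFR cells with 648. Where the count was 3, the share of all probes called fell as well. It was 6.57% for TFH minus naïve cells, and for TFH minus Treg cells 3.17% in pLN and 3.37% in PP. The interaction had 0 called genes (0.548% of all probes). It had 1 with normexp (0.692%), 2 with a fixed (4.58%) and 2 with a random slide block (5.11%). TFR minus Treg cells of pLN went from 0 (8.35%) to 1 with a fixed (12.2%) or random block (12.3%). PP minus pLN TFH cells went from 2 (4.54%) to 1 with no filter on dim probes (1.7%) and 4 with RNA input as covariate (9.05%). Fits without slide 4 left 1 array in each PP group and lost calls in several PP comparisons and in the F test, as given above. Leaving out 1 array at a time gave 3 to 4 for TFH minus naïve, 2 to 3 for TFR minus TFH in pLN, 2 to 3 for TFR minus TFH and 3 to 5 for TFH minus Treg in PP, 0 to 1 for PP minus pLN TFH and 0 to 1 for the interaction.

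Signs turned for uncalled small values only. For TFR minus Treg cells of pLN, Il2rb was -0.10 with 75th percentile scaling and -0.21 to 0.26 without single arrays. For TFR minus Treg cells of PP, Il2rg was -0.30 with that scaling and -0.032 to 0.10 without single arrays, Il2rb -0.47 to 0.22 and Il2 -0.34 to 0.027. Il2rb in PP minus pLN TFR cells ran from -0.29 to 0.27. Of 83 further uncalled values under 0.5 in size, 50 changed sign in at least 1 alternative. The cause of these changes was not tested. The low signal of Il2 in regulatory cells, above background on 15 of 20 arrays in all, limits its folds.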
